A study of Homo sapiens with 6 samples.

Results

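The genes examined here encode the MLL family of histone methyltransferase complexes: KMT2A, KMT2B, KMT2C, KMT2D, MEN1, WDR5, RBBP5, ASH2L, DPY30 and PSIP1. These 10 members, of 20176 protein-coding genes in the annotation, were taken by gene name in GENCODE release 44 mapped to GRCh37 (hg19), and all 10 had a match. The libraries were ATAC-seq libraries of MDA-MB-231 cells, a widely used cell line of human triple-negative breast cancer. Parental cells (genotype Parental) were compared with SAP30-KO1 cells (genotype SAP30 knockout), with 3 libraries in each group. In SAP30-KO1 the gene of SAP30, which belongs to the SIN3 corepressor complex, was disrupted with CRISPR, and the study mixed several selected knockout cells, so the knockout group stands for 1 such mixed line. The labels give the control as parental cells, not as cells with a control guide. Nothing in the labels says that the libraries came from separate cultures, so p-values measure the spread between these libraries, which may be technical.

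MLL proteins place methyl groups on lysine 4 of histone H3, a mark of active promoters and enhancers. KMT2A (MLL1) and KMT2B act mainly at CpG-rich promoters, KMT2C and KMT2D mainly at enhancers, and each works on a shared core of WDR5, RBBP5, ASH2L and DPY30. Menin, the product of MEN1, and LEDGF, the product of PSIP1, anchor KMT2A and KMT2B to chromatin. The study connects SAP30 with MLL1 as binding partners, so the question here was how accessible the genes of the MLL complexes themselves were with and without SAP30.

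A library's list gives 1 summit per peak and its score, the −log10 of the q value. A summit within 1 kb of any annotated start site was counted as a promoter summit, and its score was ranked from 0 to 100 within its own list. A gene with no promoter summit in a library has rank 0 there, which means that no peak was called and not that the promoter was closed. Group means were compared per gene with the two-sided exact permutation test over the 20 assignments of libraries, given below as exact p. Its smallest value with 3 libraries in each group is 0.1, so no comparison here could reach 0.05.

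The lists held 29762 to 40650 summits, and SAP30-KO1 contained both the shortest (replicate 1) and the longest (replicate 2). The targeted gene, SAP30, had a promoter summit in all 6 libraries, at ranks of 76.9 ± 10.6 in parental and 70.3 ± 20.1 in SAP30-KO1 libraries (SD, n = 3), which does not check the knockout because a summit does not show the edited sequence. Of the markers of mesenchymal-like breast cancer cells (VIM, CD44, AXL, ZEB1) all 4 had a promoter summit in at least 1 library and 2 in all 6, against 3 and 0 of the 4 luminal markers (ESR1, PGR, GATA3, CDH1), and 0 of the 2 lymphoid markers and 0 of the 1 endothelial marker had any. Over all 20176 protein-coding genes, 12572 had one in at least 1 library and 34.5% in all 6, so these small counts say little about cell identity.

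To show what lay at these summits, the reference sequence upstream of the start sites is given for 4 members. MEN1 and KMT2A are shown as the members on the long arm of chromosome 11 (11q), KMT2B as the member with the most CpG dinucleotides and RBBP5 as the one with the fewest. All are GRCh37, written 5′ to 3′ on the strand of the gene, with CpG dinucleotides, the DNA element bound by the CXXC domain of KMT2A and KMT2B when unmethylated, in capitals. MEN1, chr11:64578159-64578285 on the minus strand, stops at an exon of a longer MEN1 transcript after 127 bases and contains the summits of Parental replicates 1 and 3. KMT2A, chr11:118306871-118307170 on the plus strand, contains the summits of Parental replicates 1 and 2. KMT2B, chr19:36208575-36208874 on the plus strand, contains those of Parental replicate 2 and SAP30-KO1 replicate 2. RBBP5, chr1:205091144-205091443 on the minus strand, contains all 4 summits found at that gene.
MEN1: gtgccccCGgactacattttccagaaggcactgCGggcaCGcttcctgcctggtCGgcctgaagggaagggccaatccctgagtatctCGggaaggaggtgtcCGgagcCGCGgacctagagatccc
KMT2A: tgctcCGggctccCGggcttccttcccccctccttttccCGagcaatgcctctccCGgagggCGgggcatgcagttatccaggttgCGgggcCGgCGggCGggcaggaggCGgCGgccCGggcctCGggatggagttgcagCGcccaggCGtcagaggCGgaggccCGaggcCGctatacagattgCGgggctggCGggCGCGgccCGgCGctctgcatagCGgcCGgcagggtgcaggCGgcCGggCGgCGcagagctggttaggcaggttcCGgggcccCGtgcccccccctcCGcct
KMT2B: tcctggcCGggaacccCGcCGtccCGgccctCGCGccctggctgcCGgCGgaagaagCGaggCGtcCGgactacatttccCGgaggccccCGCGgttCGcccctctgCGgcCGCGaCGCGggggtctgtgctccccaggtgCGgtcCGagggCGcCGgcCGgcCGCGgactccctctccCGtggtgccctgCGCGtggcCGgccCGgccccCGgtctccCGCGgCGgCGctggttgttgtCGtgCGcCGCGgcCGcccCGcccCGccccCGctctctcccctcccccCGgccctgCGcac
RBBP5: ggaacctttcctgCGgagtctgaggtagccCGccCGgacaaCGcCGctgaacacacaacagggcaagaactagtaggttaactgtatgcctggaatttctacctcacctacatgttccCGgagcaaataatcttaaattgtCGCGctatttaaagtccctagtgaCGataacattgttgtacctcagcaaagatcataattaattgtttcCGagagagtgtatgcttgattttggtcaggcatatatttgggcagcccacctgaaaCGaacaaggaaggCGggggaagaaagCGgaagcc

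In the 300 bases upstream of the start sites, members had a median of 25 CpG dinucleotides (range 13 to 47), against 19 over 19818 protein-coding promoters, 23 over those with a summit in all 6 libraries and 7 over those without a summit in any library. KMT2B had 47, more than 97.8% of all promoters, KMT2C had 43, KMT2A 33, MEN1 15 and RBBP5 13. A search of both strands for exact motifs, counted separately even where they overlap, found GGGCGG (GC box) in 7 of 10 members against 57.5% of all promoters. The share was 69.6% over promoters with a summit in all 6 libraries, close to that of the members, and 38.5% over those without a summit in any library. CCAAT was found in 1 member, MEN1, against 37.7% of promoters. CCGGAAG (ETS core), the palindromic NRF1 motif and TATAAA were found in none of the 10 members, against 10.6%, 1.28% and 11.3% of promoters.

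First, the members were examined for a promoter summit in each library. All 10 had one in at least 1 library, and MEN1, KMT2C, ASH2L and DPY30 had one in all 6, which is 40% of the members against 34.5% of all protein-coding genes. The parental libraries had summits at 7, 6 and 5 of the member promoters in the order of their replicates, and the SAP30-KO1 libraries at 5, 10 and 8. The means, 6 ± 1 and 7.67 ± 2.52 (SD, n = 3), differed by 1.67 (exact p = 0.5). The groups overlapped, and the library with the longest list was the one with summits at all 10. Without SAP30-KO1 replicate 2 the difference was 0.5.

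**Figure D1:**
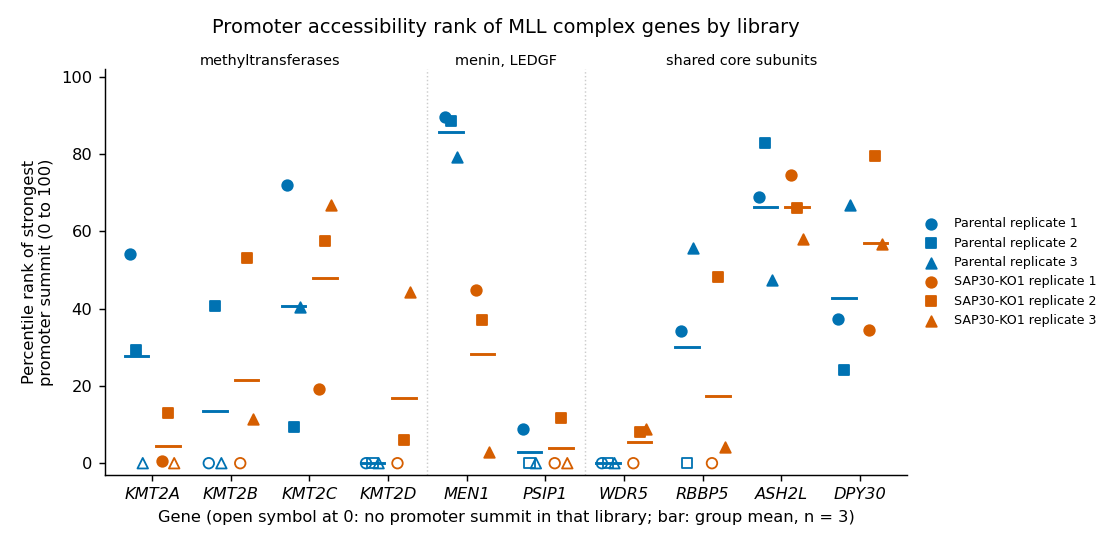
Percentile rank (0 to 100) of the strongest promoter summit of each member, with 1 symbol per library, open symbols at 0 for no promoter summit and bars for the mean of 3 libraries. The parental symbols of MEN1 (79.4 to 89.6) all lie above its SAP30-KO1 symbols (2.97 to 44.9), while the groups overlap or share rank 0 at the other members.

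Next, ranks were compared between the groups. Over all 12572 protein-coding genes with a promoter summit in any library, every SAP30-KO1 library was below every parental library for 4.57% of genes and above for 6.01%, so 10.6% had groups that did not overlap. Of the 10 members, 1 had groups that did not overlap: MEN1, lower in SAP30-KO1. The mean was lower in SAP30-KO1 for 4 members and higher for 6, with a median difference of 3.24 percentile points against 0.673 over all genes tested. This median turned to -1.53 without SAP30-KO1 replicate 2, and to -0.536 with lists of equal length. Among the members, the lowest p adjusted over all genes tested (Benjamini-Hochberg, exact permutation tests) was 0.945, at MEN1. Other genes at the smallest possible p share this value.

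Among the methyltransferase genes, KMT2A (chromosome 11, 118307171 to 118397547, plus strand) ranked at 54.3, 29.4 and 0 in Parental replicates 1, 2 and 3, and at 0.648, 13.0 and 0 in the SAP30-KO1 replicates. The highest ranks were parental, but 1 library of each group had no summit. The means were 27.9 ± 27.2 in parental and 4.54 ± 7.32 in SAP30-KO1 libraries (SD, n = 3), and their difference did not exceed the spread between libraries (difference -23.3, exact p = 0.4). Without Parental replicate 1 the difference was -10.1, and without Parental replicate 3 it was -37.3. In the latter split the groups no longer overlapped, which fewer libraries make easier by construction. The 4 summits lay at positions -614 to -255 relative to the start site of the canonical transcript, and that of SAP30-KO1 replicate 2 was the farthest. Those of Parental replicate 1 and SAP30-KO1 replicates 1 and 2 also lay within 1 kb of the start of an unnamed gene that does not code for protein. No other summit was found along the 90.4 kb of the gene in any library.

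KMT2B, the closest paralog of KMT2A (chromosome 19, 36208875 to 36229781, plus strand), had a summit in Parental replicate 2 at rank 40.6 and in SAP30-KO1 replicates 2 and 3 at ranks 53.1 and 11.4. It had none in the remaining 3 libraries, and the groups overlapped (difference 7.96, n = 3, exact p = 0.7). The direction depended on SAP30-KO1 replicate 2, without which the difference was -7.85, and it was -1.07 with lists of equal length. All summits of KMT2B lay at positions -430 to -290 relative to its canonical start site.

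KMT2C, an enhancer methyltransferase (chromosome 7, 151832007 to 152133729, minus strand), ranked at 72.2, 9.35 and 40.4 in the parental libraries and at 19.3, 57.4 and 66.7 in the SAP30-KO1 libraries. Both groups spanned low and high ranks (means 40.6 ± 31.4 and 47.8 ± 25.1, SD, n = 3, exact p = 0.8). The difference of 7.20 became -8.44 without Parental replicate 2 and -2.26 without SAP30-KO1 replicate 3. KMT2C is the longest member, at 301.7 kb, and the one with the most loci of its own. An intronic locus at 152033892 to 152034451 was found in SAP30-KO1 replicates 2 and 3, at ranks of 36.3 and 24.2, and in no parental library. A locus at 151842929 to 151843691, within 1 kb of the start of an annotated transcript near the 3′ end of the gene, was found in Parental replicate 1 and SAP30-KO1 replicate 2, at ranks of 27.4 and 2.57. An intronic site at 152081114 to 152081614 (Parental replicate 1) and a site within 1 kb of an internal start site at 152010916 to 152011416 (SAP30-KO1 replicate 2) were each found in 1 library. The main KMT2C promoter also lies within 1 kb of the start of a pseudogene, FABP5P3. Parts of KMT2C have near-identical copies elsewhere in the genome, and how reads with several matches were treated is not given in the sources used here, so the loci inside the gene are uncertain.

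KMT2D, the paralog of KMT2C (chromosome 12, 49412758 to 49454577, minus strand), had no promoter summit in any parental library or in SAP30-KO1 replicate 1. It ranked at 5.92 and 44.4 in SAP30-KO1 replicates 2 and 3, at positions -132 and -45 relative to the start site. Parental libraries were thus at 0 throughout and SAP30-KO1 libraries at 16.8 ± 24.1 (SD, n = 3), with a shared 0 (exact p = 0.4). Most of this came from SAP30-KO1 replicate 3, without which the difference was 2.96. The difference of 16.8 was 35.0 with a promoter window of 2.5 kb, which takes in a further summit of SAP30-KO1 replicate 2 in an exon of the gene (rank 60.4). The steady site of this region was the promoter of the neighbour RHEBL1, about 9 kb upstream of KMT2D, with a summit in all 6 libraries at ranks from 11.1 to 81.1 (56.2 ± 22.9 in parental and 45.6 ± 32.5 in SAP30-KO1 libraries, SD, n = 3, exact p = 0.6).

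MEN1, which encodes menin (chromosome 11, 64570982 to 64578766, minus strand), showed the largest difference of the members. Its ranks were 89.6, 88.6 and 79.4 in Parental replicates 1, 2 and 3, against 44.9, 37.0 and 2.97 in the SAP30-KO1 replicates. All 3 parental values lay above all 3 SAP30-KO1 values, and a summit was present in every library. The mean was 85.8 ± 5.63 in parental and 28.3 ± 22.3 in SAP30-KO1 libraries (SD, n = 3), a difference of -57.5 (exact p = 0.1, the smallest possible, adjusted p = 0.945). The scores behind these ranks were 12.9, 12.8 and 9.28 in parental and 5.59, 5.41 and 2.57 in SAP30-KO1 libraries, as −log10 of q. Leaving out 1 library at a time gave differences from -65.8 to -44.9, the smaller without SAP30-KO1 replicate 3. The position of the summit varied as well. In Parental replicates 1 and 3 it lay at positions -255 and -247 relative to the canonical start site, within the sequence shown above, while in Parental replicate 2 and the 3 SAP30-KO1 libraries it lay 23 to 78 bases downstream. All 6 fell into 1 locus of 834 bases, 64577695 to 64578528.

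PSIP1, which encodes LEDGF (chromosome 9, 15464064 to 15510993, minus strand), had a promoter summit in Parental replicate 1 at rank 8.96 and in SAP30-KO1 replicate 2 at rank 11.6, and none in the other 4 libraries. These are low ranks in 1 library of each group (difference 0.883, n = 3, exact p = 1). Neither summit was kept at a q value of 0.0001 or less.

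**Figure D2:**
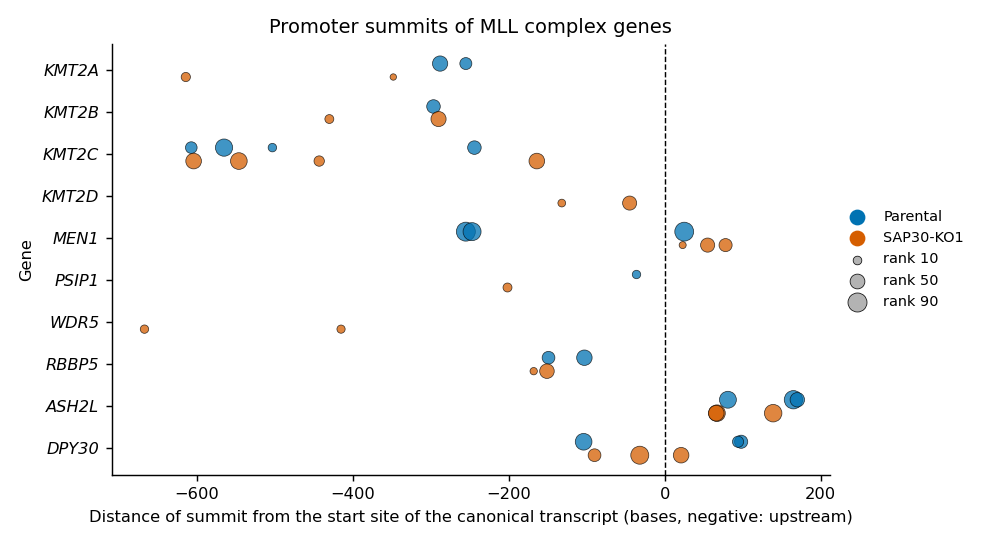
Distance in bases of each promoter summit from the start site of the canonical transcript, for summits within 1 kb of it, with blue for parental and orange for SAP30-KO1 libraries and larger circles for higher ranks. MEN1 summits fall in an upstream pair of Parental replicates 1 and 3 (-255 and -247) and a downstream set (23 to 78 bases), and KMT2A summits lie between -614 and -255.

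Of the shared core subunits, WDR5, which presents the histone tail and binds the MLL proteins (chromosome 9, 137000487 to 137025090, plus strand), had no promoter summit in any parental library. It ranked at 8.04 in SAP30-KO1 replicate 2 and 8.75 in replicate 3, both low and both also within 1 kb of the divergent noncoding gene WDR5-DT (means 0 and 5.60 ± 4.86, SD, n = 3, exact p = 0.4). With lists cut to equal length, or at a q value of 0.0001 or less, neither was kept. Without SAP30-KO1 replicate 1, both KMT2D and WDR5 had groups that did not overlap. Fewer libraries make this easier by construction, and the share over all genes was not computed for this split.

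RBBP5 (chromosome 1, 205055270 to 205091143, minus strand) ranked at 34.3, 0 and 55.7 in the parental and 0, 48.3 and 4.27 in the SAP30-KO1 libraries. The groups overlapped, with 1 library of each lacking a summit (difference -12.5, n = 3, exact p = 0.7), and without Parental replicate 3 the difference was 0.384. Its summits were the most tightly placed of the members with 3 or more, within 65 bases of each other.

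ASH2L, the subunit that with RBBP5 stimulates the methyltransferase (chromosome 8, 37963011 to 38001594, plus strand), had the narrowest range of ranks of the 4 members with a summit in all 6 libraries. It ranked at 68.9, 82.9 and 47.4 in the parental and 74.7, 66.1 and 58.0 in the SAP30-KO1 libraries. The SAP30-KO1 values lay inside the parental range, with means of 66.4 ± 17.9 and 66.2 ± 8.35 (SD, n = 3, difference -0.156, exact p = 1). Its summits lay 66 to 170 bases downstream of the canonical start site, within the first exon. A further intronic locus, 37984401 to 37985083, was found in Parental replicate 3 and SAP30-KO1 replicate 1, at ranks of 20.7 and 40.5.

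DPY30, the small subunit that docks on ASH2L (chromosome 2, 32092878 to 32264874, minus strand), ranked at 37.2, 24.1 and 66.8 in the parental and 34.6, 79.5 and 56.8 in the SAP30-KO1 libraries. The groups overlapped, with means of 42.7 ± 21.9 and 57.0 ± 22.5 (SD, n = 3, difference 14.3, exact p = 0.5). Without SAP30-KO1 replicate 2 the difference was 2.98. In every library the DPY30 promoter summit also lay within 1 kb of the start of an unnamed gene that does not code for protein. As annotated, the longest DPY30 transcript runs across the promoter of MEMO1. The MEMO1 locus, 32235102 to 32236336, had a summit in every library and higher parental ranks than the DPY30 promoter (85.3 ± 5.43 in parental and 65.1 ± 21.6 in SAP30-KO1 libraries, SD, n = 3, exact p = 0.2).

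From 10 kb upstream of each member to its end, the 6 libraries together had 68 summits, of which 46 lay at a promoter of the member and 15 at the promoter of another protein-coding gene (RHEBL1, MEMO1 or MAP4K2). Merged, they formed 20 loci, of which 6 recurred in all 6 libraries and 5 were seen in 1 library each. No locus had a summit in all 3 libraries of 1 group and in none of the other. Loci found in 2 SAP30-KO1 and no parental libraries numbered 3 (KMT2C intron, KMT2D promoter, WDR5 promoter), and the reverse was found for 0. All 3 rested on SAP30-KO1 replicates 2 and 3, and replicate 2 had the longest list. The share of such loci over all loci was not computed, so this count is not a result about the members. The regions held 11, 9 and 10 summits in the parental and 8, 19 and 11 in the SAP30-KO1 libraries, and their mean difference of 2.67 became -0.5 without SAP30-KO1 replicate 2. Counted as raw numbers, the groups overlapped for every member (lowest exact p = 0.4). Per 10000 summits of a list, the groups of 1 member, KMT2D, did not overlap, at 0.273, 0.328 and 0.298 in the parental and 0.336, 0.738 and 0.584 in the SAP30-KO1 libraries (n = 3, difference 0.253, exact p = 0.1, the smallest possible). Each parental library and SAP30-KO1 replicate 1 had 1 summit in the KMT2D region, at the RHEBL1 promoter, so SAP30-KO1 replicate 1 lies above the parental libraries here through its shorter list. For this measure the share of all genes with groups that did not overlap was not computed.

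KMT2A and MEN1 were then set against the rest of 11q, because summits were fewer and ranked lower in SAP30-KO1 along most of this arm. The arm held 3.47%, 3.65% and 3.37% of the summits of the parental libraries and 2.39%, 2.61% and 2.44% of those of the SAP30-KO1 libraries. Among protein-coding promoters of 11q with a summit in any library, 22.2% had SAP30-KO1 ranks below all parental ranks and 0.617% above, 22.8% in all. On the other arms, which carry the other 8 members, none of them with groups that did not overlap, these shares were 3.86%, 6.22% and 10.1%.

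The difference of MEN1 was larger than those of the other promoters of its arm that had a summit in all 6 libraries. Over the 230 other 11q promoters with a summit in all 6 libraries the median difference was -12.3, with quartiles of -22.8 and -5.21, and 90% were lower in SAP30-KO1. None of these 230 promoters, and none of the 6735 on other arms, had a difference as low as that of MEN1. Among the 485 other 11q promoters with a summit in any library, 5 had one as low or lower, as had 10 of the 12086 on other arms. Counted as loci, 1 of the 454 loci of 11q with a summit in all 6 libraries had a lower difference than MEN1. Ranked among the summits of 11q alone, MEN1 was at 84.12, 84.37 and 72.04 in the parental and 49.9, 40.5 and 4.30 in the SAP30-KO1 libraries. The groups still did not overlap (difference -48.6, n = 3, exact p = 0.1, the smallest possible). The difference of MEN1 exceeded the median of the other promoters of its arm by -45.2 points, and by -34.4 without SAP30-KO1 replicate 3. Ranks end at 0, so a promoter with a low parental rank could not fall as far as MEN1. Over 11q promoters with a summit in any library the median parental mean was 51.2, against 85.8 at MEN1. The promoters were not matched by parental rank.

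KMT2A lay within the range of its arm. Of the 485 other 11q promoters with a summit in any library, 109 (22.5%) had a difference as low as its -23.3 or lower. Its difference lay -10.8 points from the median of the 231 promoters with a summit in all 6 libraries, and 0.435 points above it without Parental replicate 1. Ranked within 11q, it was at 49.4, 28.5 and 0 in the parental and 1.12, 16.8 and 0 in the SAP30-KO1 libraries (difference -20.0, n = 3, exact p = 0.4). The arms of the other 8 members had median differences between -0.91 (19q) and 1.83 (7q).

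**Figure D3:**
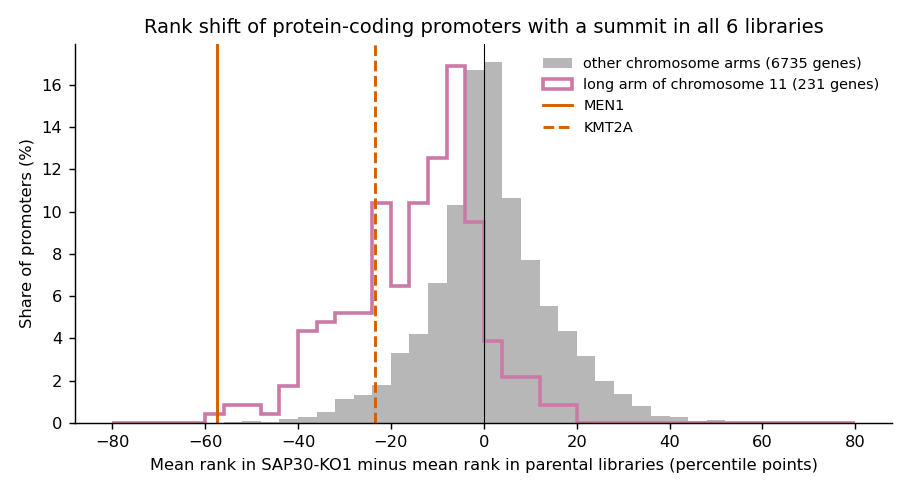
Share of promoters (%) by the difference of mean percentile rank, SAP30-KO1 minus parental, for protein-coding promoters with a summit in all 6 libraries on 11q (231 genes, outline) and on other arms (6735 genes, filled). MEN1 (solid line, -57.5) stands at the low end of the 11q outline, whereas KMT2A (dashed line, -23.3, not among the 231 because 2 libraries lacked a summit) stands inside it.

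The differences varied among the 5 nearest promoters on each side that had a summit in all 6 libraries, which reach as far as 1979 kb from MEN1 and lie 621 to 1237 kb from KMT2A. Of the 10 such neighbours of MEN1, 8 had a lower mean in SAP30-KO1 and 3 had groups that did not overlap: WDR74 at -26.0, SAC3D1 at -29.6 and SLC25A45 at -39.1. The nearest of them, SF1, which encodes a splicing factor 32.5 kb away, ranked at 70.3 ± 25.1 and 64.4 ± 16.6 (SD, n = 3, exact p = 0.7). SYVN1, 323.2 kb on the other side, had a difference of 18.1 in the opposite direction. Inside the MEN1 region, a summit at the promoter of MAP4K2, nearer still at the 3′ end of MEN1, was found in Parental replicate 3 alone (rank 28.3). This region covers only part of the MAP4K2 promoter. MAP3K11 and PCNX3 share their summits, and with them taken as 1 site 7 of 9 sites near MEN1 had a lower mean. Around KMT2A, 8 of 10 neighbours had a lower mean, and TAGLN (-53.9) and HINFP (-16.5) had groups that did not overlap. Over all other 11q promoters with a summit in all 6 libraries these shares were 90% for a lower mean and 31.7% for groups apart and lower. The median difference was -8.43 near MEN1 and -10.4 near KMT2A. Within 1 Mb of the start site of MEN1 the lists held 51, 47 and 43 summits in the parental and 26, 46 and 32 in the SAP30-KO1 libraries. Around KMT2A they held 43, 34 and 32 against 14, 32 and 28. Per 10000 summits of a list, the window of MEN1 held 13.9, 15.4 and 12.8 against 8.74, 11.3 and 9.34. That of KMT2A held 11.7, 11.2 and 9.54 against 4.70, 7.87 and 8.17. By this measure the groups did not overlap at either gene, and the share of other windows for which this holds was not computed. The peak lists hold no read depth, so fewer copies of a chromosome region and lower accessibility of each copy cannot be told apart.

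**Figure D4:**
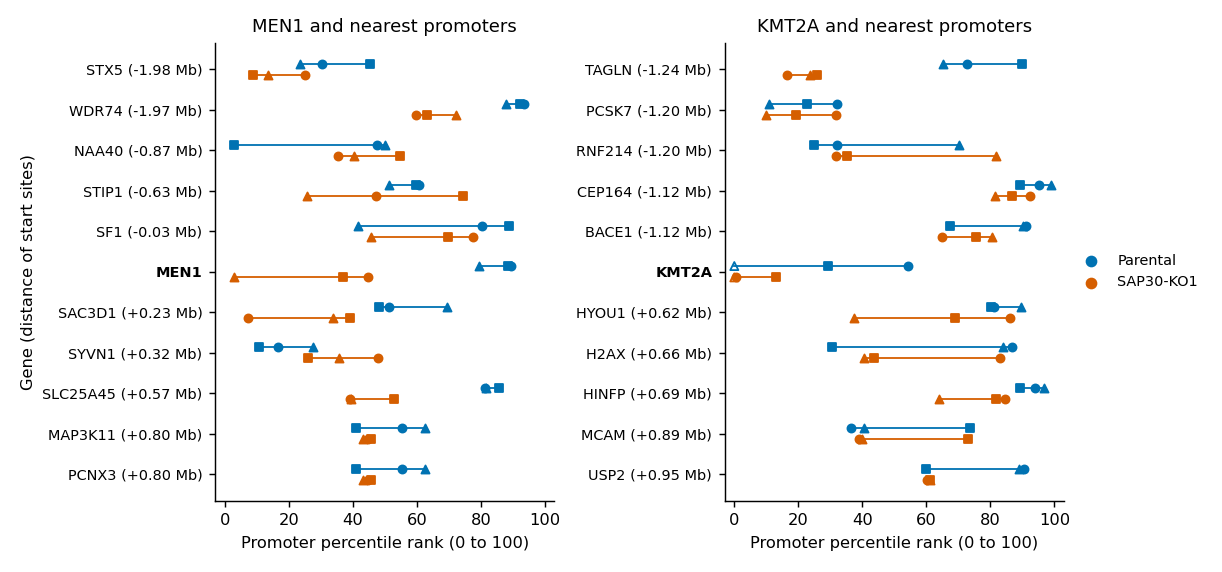
Promoter percentile ranks of MEN1 (left), KMT2A (right) and the 5 nearest protein-coding promoters on each side with a summit in all 6 libraries, ordered by position, with symbols for libraries and lines for the range of each groupand brackets giving the distance of start sites in Mb. The lines of MEN1 are apart, those of SF1, its nearest neighbour, overlap, and those of TAGLN, WDR74, SAC3D1, SLC25A45 and HINFP are apart.

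Finally, 18 other genes of histone H3 lysine 4 methylation were examined, such as subunits of the SETD1 and KMT2C/KMT2D complexes, the protease that cleaves MLL1 and the demethylases. A promoter summit was found for 17 of them in any library and for 6 in all libraries. KDM5B had none. Groups did not overlap for 3 of these 17, 2 lower and 1 higher in SAP30-KO1, beside 10.6% of all genes tested (4.57% lower and 6.01% higher), a background at which a count of this size says little about the list. The median difference was -0.521, against 0.673 over all genes tested. CXXC1, the CpG-binding subunit of the SETD1 complexes, ranked at 74.5, 71.3 and 86.5 in the parental and 64.1, 67.4 and 47.8 in the SAP30-KO1 libraries. HCFC2 ranked at 76.0, 70.4 and 62.2 in the parental and 0, 60.8 and 22.2 in the SAP30-KO1 libraries. HCFC1, its paralog and a subunit of SETD1 and MLL complexes, had no promoter summit in any parental library and ranked at 27.4, 45.1 and 50.1 in SAP30-KO1. It lies on the long arm of chromosome X, where the median difference was 7.42 over 155 promoters. The arms of CXXC1 (18q, 83 promoters) and HCFC2 (12q, 269 promoters) had medians of 4.94 and 1.62, opposite in direction to CXXC1 and HCFC2 themselves. For each of CXXC1, HCFC2 and HCFC1 p was 0.1, the smallest possible, and the adjusted p was 0.945 (n = 3, exact permutation test). TASP1, the protease that processes MLL1, ranked at 86.8 ± 6.92 and 93.7 ± 1.78 (SD, n = 3, exact p = 0.3).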

How the data were processed

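ATAC-seq libraries of parental (n = 3) and SAP30-KO1 (n = 3) MDA-MB-231 cells were analysed from the deposited peak summits, 1 list per library, and the labels gave groups and replicates. The authors sequenced single-end reads, trimmed them with Trim Galore 0.4.5, aligned them to hg19 with Bowtie2 2.3.3.1, discarded duplicates (Picard) and used MACS2 2.1.0 for peaks at a q value of 0.05 (versions from the submitters' processing notes). Transposase offset, blacklisted regions and multimapping reads are not given in the sources used here. The deposited score is the −log10 of the q value per peak, read from the values. Depth is unknown, so no counting interval is given and list length moves with it.

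Ranks, promoters, loci (501 bp windows merged across libraries) and 11q were computed in Python 3.11.15 with numpy 2.4.6, pandas 2.3.3 and scipy 1.17.1. Chromosome arms were divided at the largest sequence gap. Group means were compared with exact permutation tests over 20 assignments, two-sided, adjusted by Benjamini-Hochberg over 12572 protein-coding genes. The ranking was tested on simulated lists, all made from the same library with random changes of score and small shifts of position. Scores were lowered at chosen promoters and no peak was removed, so the simulation does not cover missing summits. Between any pair of libraries fewer than 1% of summit positions were identical. Members and lists were chosen with earlier results of these data known. Named are the members, listed genes with groups that did not overlap, SAP30, TASP1 and KDM5B (the last 2 after their values were seen) and the 5 nearest promoters on each side of KMT2A and MEN1. Motifs were counted in the 300 bases upstream of start sites, not around summits as planned, which allowed promoters without a summit to be counted. PECAM1, a planned marker, was not analysed here.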

Additional observations from a re-analysis of the deposited data

How the results depend on the processing

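With 3 libraries per group no p can fall under 0.1, so each alternative is read by its direction and size. They were promoter windows of 500 bp and 2.5 kb, q value limits of 0.01 and 0.0001, equal list lengths of 29762 summits, chromosomes 1 to 22 and X, mean in place of strongest summit, ranks within the arm, a log2 score scale, the replicate block and each library left out. The canonical start site and the median without the members on 11q were added after the data were seen.

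MEN1 and KMT2A kept their direction in all of these. By promoter rank, MEN1 was the member with groups that did not overlap in every setting with 6 libraries. ASH2L, at -0.156, changed to 0.0487 and 3.33 at the stricter q values and to 1.20 within its arm. With equal list lengths KMT2B was at -1.07 and the median of the members at -0.536. On the log2 scale, which puts a missing summit at the library median by construction, KMT2B was at -0.20, KMT2D at -0.41 and WDR5 at -0.65. The summits in all regions differed by -0.333 under the q value limit of 0.0001 and by 0.547 per 10000 listed summits.

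With 1 library left out, differences ran from -37.3 to -10.1 for KMT2A, -65.8 to -44.9 for MEN1, -7.85 to 21.5 for KMT2B, -8.44 to 22.96 for KMT2C, 2.96 to 25.2 for KMT2D, 4.02 to 8.39 for WDR5, 2.98 to 26.3 for DPY30, -27.9 to 0.384 for RBBP5, -9.66 to 8.10 for ASH2L and -2.99 to 3.87 for PSIP1. KMT2A against the median of 11q ran from -25.3 to 0.435 and MEN1 from -56.0 to -34.4. The median of the members ran from -1.53 to 5.61, members with groups that did not overlap from 1 to 3, summits in all regions from -0.5 to 5, those of KMT2C from -0.5 to 1.5 and those of DPY30 from -0.333 to 0.667. Fewer libraries make groups easier to separate by construction, and the share over all genes was not computed with 1 library left out. Other causes were not tested.

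Replicates with the same number did not deviate together (r from -0.0286 to 0.0115 over 6966 promoters). Those with different numbers gave r from -0.0183 to 0.0400. These values cannot show whether libraries with the same number were prepared together, and the labels do not say. With the replicate block the differences are unchanged by construction. MEN1 was lower in 3 of 3 pairs, at -44.7, -51.6 and -76.4 (exact sign-flip p = 0.25, the smallest possible).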

Other observations

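Among the 6966 protein-coding promoters with a summit in all 6 libraries, MEN1 had the lowest difference between the groups. This set leaves out promoters that lack a summit in some library. With a summit in any library, 5 other promoters of 11q and 10 on other arms were as low or lower. The next lowest of the 6966, named here after their values were seen, were CDC25B, a cell cycle phosphatase gene on chromosome 20, at -54.9, and TAGLN, an actin-binding protein gene on 11q, at -53.9. TAGLN is also among the nearest neighbours of KMT2A, 1237 kb away, with mean ranks of 75.9 ± 12.7 in the parental libraries and 21.96 ± 4.98 in those of SAP30-KO1 (SD, n = 3, exact p = 0.1, the smallest possible). These positions in the order describe 6 libraries and were not tested.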
